A study of Zea mays with 48 samples.

Results

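Maize leaves of the inbred line W22 were compared at V4 between plants grown at a maximum daily temperature of 35 °C and plants grown at 33 °C. The comparison takes the 3 libraries of each group, 6 of the 48 in the series. V4 is the stage at which the collar of leaf 4 can be seen, here 20 days after germination. The series asks how bZIP60, which controls transcription in the unfolded protein response of the endoplasmic reticulum, bears on the heat response. It sets W22, which carries no named mutation in the labels, beside the bzip60-2 mutant at 4 temperatures, at V4 and at V5 (27 days). The middle of the newest fully expanded leaf was sampled, and libraries were made from poly(A) RNA. The bzip60-2 plants and the V5 plants are used below only to show where the W22 V4 response differs.

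The 35 °C and the 33 °C plants shared the light cycle, soil moisture and humidity, and nights were 10 °C cooler than the daily maximum in both, so the night temperature differed as well. Each temperature was held by its own pair of Enviratron chambers, so an effect of temperature and an effect of the chambers cannot be told apart. The series text describes replicates made from several plants and the extraction text describes individual plants. Whether a library is 1 plant or a pool is therefore unclear. The p values measure the spread between replicate libraries, pooled over the 16 groups of the series, and nothing beyond it.

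Plants meet a hot day with a fast change of nuclear transcription, in which heat shock factors raise chaperones and many genes of growth and photosynthesis are turned down. Chloroplasts and mitochondria keep small genomes of their own, which encode part of the photosynthetic and respiratory complexes and of the organelle ribosomes. Their transcripts are processed inside the organelle and mostly lack a stable poly(A) tail, so oligo(dT) selection removes most of them and keeps a remainder. Values for organelle genes below are levels in that remainder. In whole leaf RNA, fewer cells of a type and less RNA per cell cannot be told apart.

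The nuclear genes of the table carry identifiers only. None of the 30432 was paired with a symbol in the annotation used here, so bZIP60, the chaperones and the markers of leaf cell types were not analysed here, and the leaf label was not checked against markers. The 211 organelle locus tags were all paired with symbols. Expression is given as FPKM, the fragments of a transcript divided by its length and by the mapped fragments of the library. Summed FPKM of the 6 libraries ran between 896096 and 929781, and 24520 to 25271 genes were listed above 0 in each. Absolute depth is unknown. The step between low values put the depth of the 6 libraries within 0.885 to 1.00 of each other. Replicates lay close together, with a median coefficient of variation of 2.74% at 35 °C and 2.66% at 33 °C over 1350 genes that averaged at least 100 FPKM in the series. Libraries with a low and with a high level of the nuclear gene Zm00001d033132 are called library sets below. The labels give no such sets, and what the difference stands for was not tested. Zm00001d033132 was at most 1.12 FPKM in all 6 libraries, and at least 92.4 FPKM in the W22 V5 and bzip60-2 V4 libraries of both temperatures. Replicate 3 of W22 V4 at 37 °C stood apart from its group, with 172 FPKM of this gene beside 0.33 and 1.29 FPKM in the other replicates.

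In the FPKM as deposited, 35 °C plants showed a small rise of many genes and a short list of large changes in both directions. Of 22794 genes with at least 1 FPKM in at least 3 of the 48 libraries, 7092 were higher at 35 °C than at 33 °C (31.1%) and 1818 were lower (7.98%) at an adjusted p under 0.05 in limma. Together these are 8910 genes, 39.1% of those tested. The median log2 change in FPKM + 1 was 0.13, with quartiles of -0.04 and 0.31. A change of at least 2-fold was reached by 425 higher genes (1.86%) and 94 lower genes (0.412%). The 35 °C libraries lay wholly above the 33 °C libraries in 8055 genes (35.3%) and wholly below them in 2389 (10.5%).

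The direction of the small changes depended on how libraries were scaled. Size factors, the median ratio of a library to the average library over genes, averaged 0.871 ± 0.00721 at 35 °C and 0.758 ± 0.00615 at 33 °C (SD, n = 3 each). After division by them the median change was -0.01, and 3437 genes were called higher (15.1%) and 4060 lower (17.8%). The 2-fold calls became 327 higher and 188 lower. Results are as deposited unless scaled values are named.

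The most abundant transcripts fell at 35 °C while mid-abundance transcripts, as deposited, were more often called higher than lower. Of the 105 genes averaging 1000 FPKM or more in the series, 76 were lower at 35 °C (72.4%) and 8 were higher (7.62%), with a median log2 change of -0.27. After size-factor scaling 93 of these genes were lower (88.6%) and 6 higher. Of 1245 genes between 100 and 1000 FPKM, 44.8% were called higher and 26.8% lower, and after scaling 21.2% and 50.9%. Of 8588 genes between 10 and 100 FPKM, 45.6% were called higher and 9.06% lower, and after scaling 19.1% and 23.5%. Of 9891 genes between 1 and 10 FPKM, 23.99% were called higher and 5.56% lower. The share called lower thus increased with abundance under both scalings, as the plot of calls by abundance shows.

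**Figure D1:**
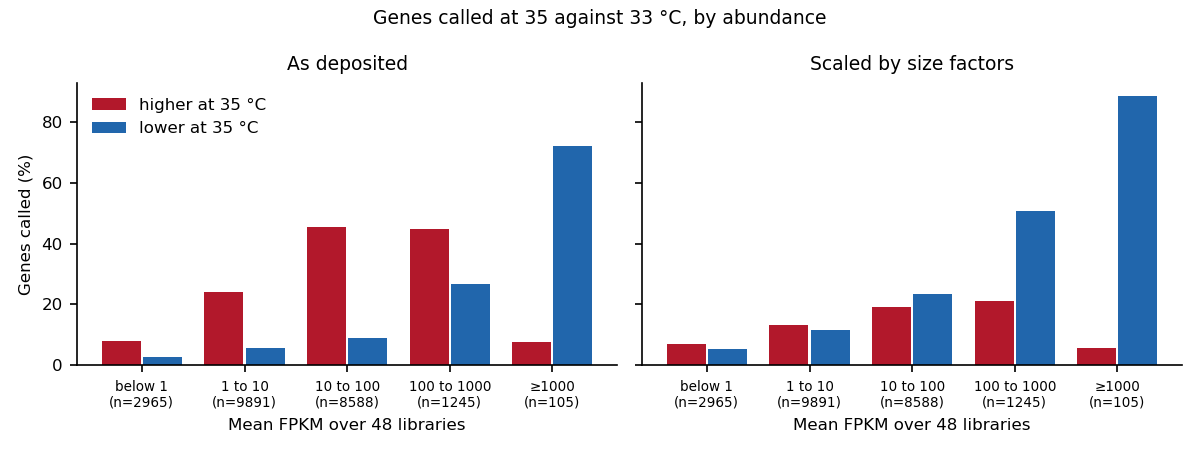
Percent of genes called higher or lower at 35 °C than at 33 °C (y axis) in 5 bands of mean FPKM over 48 libraries (x axis, with the number of genes), for FPKM as deposited at left and divided by size factors at right. Bars start at 0. In the band of 1000 FPKM and above, 72.4% were lower as deposited and 88.6% after scaling.

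The 100 genes with the most FPKM in these 6 libraries, 99 of them nuclear, held 32.9% ± 0.405 of all FPKM at 35 °C and 38.4% ± 0.363 at 33 °C (SD, n = 3 each). The share was 37.7% at 31 °C and 37.0% at 37 °C, so it was lowest at 35 °C of the 4 temperatures. Among these 100 genes 76 were called lower, 8 were called higher and 16 were not called. Their log2 changes reached -1.27 and 1.54 at the extremes. Since FPKM are relative to the mapped total, a smaller share of the top genes moves with higher FPKM of the others. Its part in the count of genes called higher was not tested.

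A few nuclear transcripts changed far more than the rest. Zm00001d024903 had 155.76, 152.55 and 154.97 FPKM at 35 °C, against 1.95, 2.64 and 2.16 FPKM at 33 °C. The groups are far apart, and the log2 change in FPKM + 1 was 5.59 (SE 0.078, adjusted p = 1.12e-36, limma). Zm00001d028750 had 427.92, 411.52 and 441.09 FPKM at 35 °C, against 19.41, 18.84 and 18.72 FPKM at 33 °C. Its log2 change was 4.42 (SE 0.068, adjusted p = 2.5e-35). Both had their highest mean at 35 °C among the 4 temperatures: Zm00001d024903 averaged 1.26 FPKM at 31 °C and 52.5 FPKM at 37 °C, and Zm00001d028750 averaged 42.3 and 104 FPKM.

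The falls were smaller in FPKM. A lack of overlap between the groups was a condition for naming the rises and the falls, so it is not a result for them. Zm00001d034668 was listed at 0 in all 3 libraries at 35 °C, against 12.33, 10.32 and 9.1 FPKM at 33 °C (adjusted p = 4.68e-09). It was present at 31 °C, at 5.61 to 9.46 FPKM, and at 37 °C, at 1.94 to 7.18 FPKM. Zm00001d011847 had 0.56, 0.86 and 0.72 FPKM at 35 °C, against 10.18, 11.79 and 11.86 FPKM at 33 °C. Its log2 change was -2.84 (SE 0.11, adjusted p = 5.1e-23). At 31 °C it averaged 14.6 FPKM and at 37 °C 23.5 FPKM, so its level at 35 °C stood below both neighbouring temperatures. Change of this on or off kind was rare. Over the whole table, just 1 gene had at least 1 FPKM in every 35 °C library and was listed at 0 in every 33 °C library, and 2 genes showed the opposite.

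**Figure D2:**
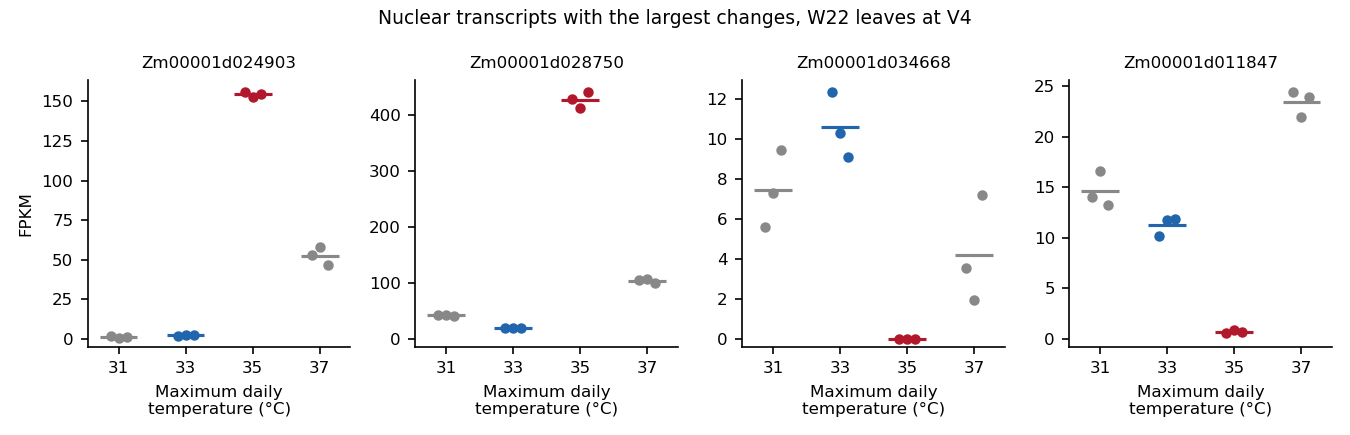
FPKM (y axes, each from near 0) of 4 nuclear identifiers, by maximum daily temperature in W22 leaves at V4 (x axes). They were named for the largest rises and falls among genes whose groups do not overlap. Each point is a library and each line a group mean (n = 3), with 35 °C in red and 33 °C in blue. Zm00001d024903 and Zm00001d028750 peak at 35 °C, and Zm00001d034668 and Zm00001d011847 are lowest there.

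The 35 °C plants often stood outside the range of both neighbouring temperatures. Among the 425 genes called at least 2-fold higher, the 35 °C mean was the highest of the 4 temperatures in 344 (80.9%), against 34.3% of all genes tested. The 37 °C mean was the highest in 55 of them, and the 33 °C mean was the lowest in 240 (56.5%), against 33.4% of all genes. Among the 94 genes called at least 2-fold lower, the 35 °C mean was the lowest in 75 (79.8%), against 15.8% of all genes. The 31 °C mean was the highest in 53 of these and the 37 °C mean in 11. The choice of genes by 35 against 33 °C fixes part of this order, so the shares are a description. Without replicate 3 at 37 °C the counts were 343 of 425 and 77 of 94.

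Mitochondrial transcripts rose at 35 °C. Of the 21 named mitochondrial genes that passed the filter, 13 were called higher, 0 were called lower and 8 were not called, against 31.1% higher and 7.98% lower over all genes. All 21 log2 changes were above 0, with a median of 0.64, and scaling left 13 higher and 0 lower with a median of 0.57. The summed FPKM of the 21 genes were 65.47, 78.86 and 89.80 at 35 °C, against 22.95, 28.12 and 29.58 at 33 °C. The lowest 35 °C library was above the highest 33 °C library. By group the sums averaged 23.6 ± 2.41 FPKM for 31 °C, 26.9 ± 3.48 for 33 °C, 78.0 ± 12.2 for 35 °C and 70.5 ± 3.09 for 37 °C (SD, n = 3 each). In the sums, the 2 cooler and the 2 warmer temperatures thus form separate levels. Of these sums rps12 alone made up 12.6, 11.5, 30.1 and 36.3 FPKM, in that order. Not every gene followed the sums, as the values of nad9 and rps13 below show.

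Transcripts for proteins of the mitochondrial ribosome had the largest median change, 1.31 over the 6 tested. Of these, 4 were called higher, against 31.1% of all genes. The level of rps12, a small-subunit protein, was 24.25, 29.42 and 36.59 FPKM at 35 °C, against 7.46, 12.07 and 15.04 FPKM at 33 °C. The groups do not overlap, and the log2 change was 1.34 (SE 0.17, adjusted p = 1.99e-08). The level of rps13 was 2.43, 3.1 and 3.25 FPKM at 35 °C, against 0, 0.67 and 0.32 FPKM at 33 °C, and its log2 change was the largest of the 21 at 1.59 (SE 0.28, adjusted p = 1.61e-05). It was listed at 0 in all 31 °C libraries and averaged 0.8 ± 0.857 FPKM at 37 °C, lower than at 35 °C. The other small-subunit genes called were rps2B, with a log2 change of 1.43 (adjusted p = 1.87e-09), and rps7, with 1.29 (adjusted p = 6.85e-06). Of the 2 not called, rps4 had 1.49 FPKM in 1 of the 35 °C libraries and 0 in the other two, and rps1 had a log2 change of 0.40 (adjusted p = 0.166).

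Complex I, the NADH dehydrogenase that feeds electrons into the respiratory chain, had 5 tested genes with a median log2 change of 0.68. Of these, 3 were called higher, against 31.1% of all genes. The level of nad3 was 5.62, 7.56 and 7.79 FPKM at 35 °C, against 2.41, 1.64 and 2.46 FPKM at 33 °C (log2 change 1.33, SE 0.18, adjusted p = 9.25e-08). The level of nad9 was 5, 5.86 and 6.58 FPKM at 35 °C, against 2.88, 1.92 and 0.99 FPKM at 33 °C (log2 change 1.26, SE 0.20, adjusted p = 1.92e-06). Its groups do not overlap, and with 1.95 FPKM at 31 °C and 1.96 FPKM at 37 °C the 35 °C mean was the only one above 2 FPKM. The level of nad4 averaged 1.04 ± 0.0569 FPKM at 35 °C and 0.277 ± 0.0987 FPKM at 33 °C (SD, n = 3 each). Its log2 change was 0.68 (adjusted p = 0.000171). Both nad4L and nad6 lay under 1 FPKM in all 6 libraries and were not called.

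Complex IV, cytochrome c oxidase, reduces oxygen at the end of the chain. All 3 of its tested genes were called higher, against 31.1% of all genes. The level of cox3 was 2.61, 4.34 and 3.49 FPKM at 35 °C, against 1.03, 1.4 and 0.55 FPKM at 33 °C (log2 change 1.17, SE 0.21, adjusted p = 1.53e-05). The log2 change was 1.02 for cox2 (adjusted p = 1.43e-06) and 0.64 for cox1 (adjusted p = 0.000251). No library of any of these 3 genes at 33 °C reached the lowest library at 35 °C. The gene cob, cytochrome b of complex III, was not called, with 0.14, 0.14 and 0.93 FPKM at 35 °C, against 0.07, 0.23 and 0.43 FPKM at 33 °C.

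Of the genes for the mitochondrial ATP synthase, which makes ATP from the proton gradient, atp4 and atp6 were called higher and atp8 was not. The level of atp4 was 5.77, 5.45 and 7.72 FPKM at 35 °C, against 1.61, 2.2 and 1.52 FPKM at 33 °C (log2 change 1.39, SE 0.18, adjusted p = 4.29e-08). Its groups are well apart, while those of atp8 overlap, at 0.62 to 1.01 FPKM at 35 °C and 0.42 to 0.92 FPKM at 33 °C. The log2 change of atp6 was 0.57 (adjusted p = 0.00168). The gene ccmFN serves the attachment of heme to cytochrome c. It had 0.53, 0.66 and 0.72 FPKM at 35 °C, against 0.13, 0.18 and 0.17 FPKM at 33 °C (log2 change 0.50, SE 0.11, adjusted p = 0.000322), and ccmB and ccmC, of the same pathway, were not called. These low levels are near the floor of the table, and log2(FPKM + 1) understates the change of low genes.

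Reading frames of the mitochondrial genome without a gene name moved less uniformly. Of 111 such frames, 40 passed the filter, and 8 of these were called higher and 2 lower, with a median log2 change of 0.37. Over all genes 31.1% were higher and 7.98% lower. After scaling 10 were higher and 2 lower, against 15.1% and 17.8% of all genes. Pieces of both organelle genomes are also found in nuclear chromosomes, and how reads shared with such copies were counted is not given in the sources used here.

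**Figure D3:**
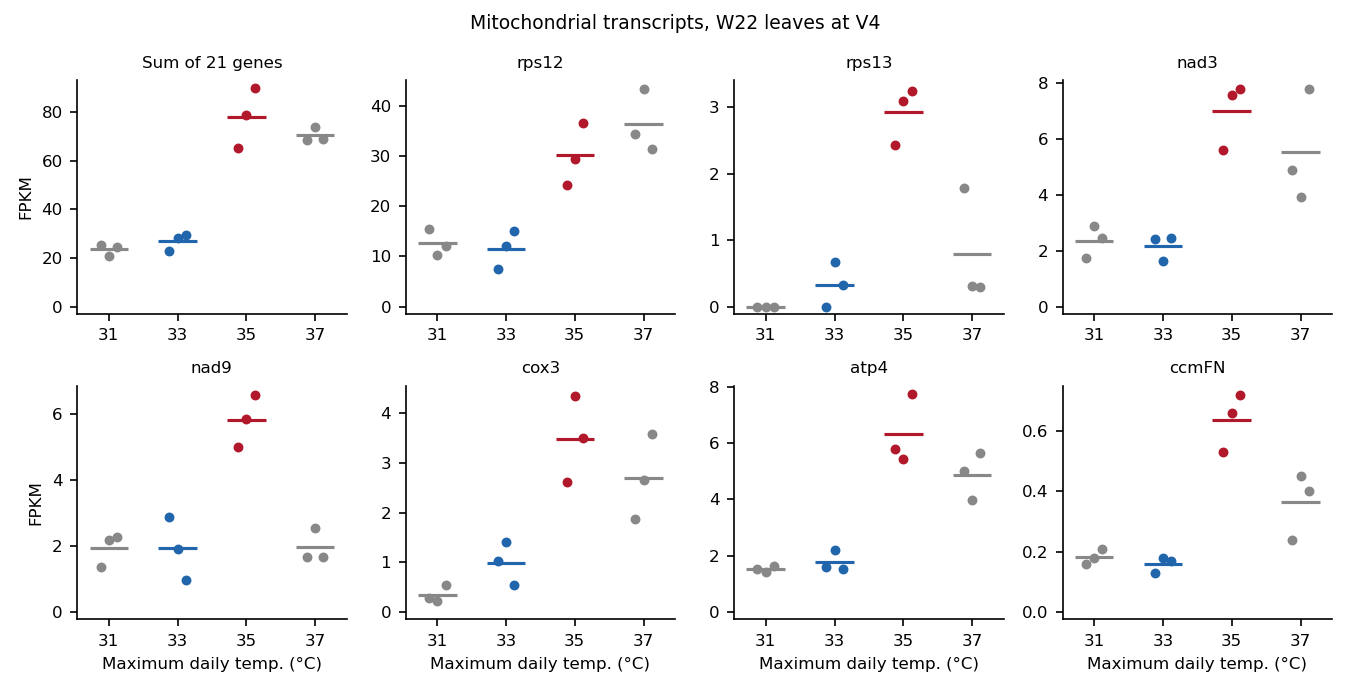
FPKM (y axes) by maximum daily temperature in W22 leaves at V4 (x axes), for the sum of 21 named mitochondrial genes and for 7 of them. Each point is a library and each line a group mean (n = 3), with 35 °C in red and 33 °C in blue. All 35 °C points lie above all 33 °C points in each panel, and nad9 and rps13 are lower again at 37 °C.

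Plastid transcripts changed in both directions, and by less. Of the 28 named plastid genes reported here, 11 were called higher, 1 lower and 16 were not called, with a median log2 change of 0.18. Over all genes 31.1% were higher and 7.98% lower, with a median of 0.13, so the plastid genes as a group lay near the background. After size-factor scaling 6 were higher and 3 lower, against 15.1% and 17.8% of all genes, and the median was 0.0035. Their summed FPKM as deposited averaged 1887 ± 54.7 at 35 °C and 1522 ± 111 at 33 °C (SD, n = 3 each). The lowest 35 °C library, at 1837 FPKM, was above the highest 33 °C library, at 1639 FPKM. The sums were not scaled, and the size factors of these libraries were 0.871 and 0.765, so the gap holds for the deposited values only. Most of the sum came from ndhK, ndhC and rps3, which averaged 543, 490 and 333 FPKM at 35 °C.

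The NDH complex passes electrons back to the plastoquinone pool in cyclic flow around photosystem I. Of its 8 tested genes, 4 were called higher under both scalings, against 31.1% of all genes as deposited and 15.1% after scaling. The level of ndhK, the most abundant of them, was 556.36, 523.59 and 548.32 FPKM at 35 °C, against 414.92, 379.67 and 398.38 FPKM at 33 °C. The groups do not overlap, and the log2 change was 0.45 (SE 0.058, adjusted p = 5.77e-08), or 0.25 after scaling (adjusted p = 0.000571). The level of ndhC was 481.54, 499.06 and 489.18 FPKM at 35 °C, against 385.84, 332.35 and 418.64 FPKM at 33 °C (log2 change 0.38, adjusted p = 5.86e-05). The low transcripts ndhE and ndhD had log2 changes of 0.77 (adjusted p = 0.0106) and 0.68 (adjusted p = 0.000302). The call for ndhE was lost without replicate 1 at 35 °C (adjusted p = 0.0588) or replicate 2 at 33 °C (adjusted p = 0.058).

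The genes of the chloroplast ATP synthase split. The level of atpF was 143.73, 150.4 and 142.94 FPKM at 35 °C, against 90.39, 94.21 and 105.87 FPKM at 33 °C. Its groups are clearly apart. The log2 change was 0.59 (SE 0.081, adjusted p = 2.07e-07), and 0.39 after scaling (adjusted p = 7.32e-05). The transcript of atpB was also called higher (log2 change 0.36, adjusted p = 0.0119), but not after scaling (0.17, adjusted p = 0.253), nor without replicate 3 at 35 °C (adjusted p = 0.0605) or replicate 1 at 33 °C (adjusted p = 0.103). The other 3 tested genes of the complex, atpH, atpI and atpE, were not called, with log2 changes of 0.01, -0.07 and -0.14.

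Genes of the plastid transcription and translation machinery were divided as well. The level of rpoC1, a subunit of the plastid-encoded RNA polymerase, was 4.68, 3.55 and 4.26 FPKM at 35 °C, against 2.82, 2.97 and 2.26 FPKM at 33 °C (log2 change 0.49, adjusted p = 0.00203). Of 8 ribosomal protein genes reported here, rps4 and rpl20 were called higher as deposited, with log2 changes of 0.28 and 0.34, and neither after scaling (adjusted p = 0.518 for rps4 and 0.111 for rpl20). Without replicate 3 at 35 °C neither was called (adjusted p = 0.0696 for rps4 and 0.0719 for rpl20), and rpl20 was also lost without replicate 1 at 35 °C (adjusted p = 0.0734) or replicate 2 at 33 °C (adjusted p = 0.136). Of the plastid genes reported here, the 1 called lower, rpl2, also belongs to the ribosome. The level of rpl2 was 14.06, 13.65 and 13.12 FPKM at 35 °C, against 16.11, 16.53 and 18.57 FPKM at 33 °C (log2 change -0.30, adjusted p = 0.0258). The groups do not overlap. The rpl2 call was lost without replicate 2 at 35 °C (adjusted p = 0.0546), without replicate 3 at 35 °C (adjusted p = 0.0778) or without replicate 3 at 33 °C (adjusted p = 0.121).

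Genes for the photosystems themselves gave few calls. The level of psbC, the CP43 antenna protein of photosystem II, was 2.57, 2.5 and 2.3 FPKM at 35 °C, against 1.69, 1.45 and 1.95 FPKM at 33 °C (log2 change 0.36, adjusted p = 0.00946), and it was not called after scaling (adjusted p = 0.0896) or without replicate 2 at 33 °C (adjusted p = 0.0648). The photosystem I core genes psaA and psaB were not called, with log2 changes of 0.04 and -0.12, although psaB was called lower after scaling (-0.31, adjusted p = 0.0167). The photosystem I assembly gene ycf3 had 38.14, 36.18 and 36.82 FPKM at 35 °C, against 43.36, 38.94 and 50.0 FPKM at 33 °C. These groups do not overlap, yet ycf3 missed the threshold as deposited (log2 change -0.24, adjusted p = 0.0515) and passed it after scaling (-0.44, adjusted p = 0.000479). The level of matK, a plastid intron maturase, was 8.88, 8.16 and 9.75 FPKM at 35 °C, against 5.31, 7.08 and 7.23 FPKM at 33 °C (log2 change 0.40, adjusted p = 0.00492; after scaling 0.23, adjusted p = 0.105). Leaving out replicate 1 at 33 °C ended the matK call (adjusted p = 0.0744), and ycf3 was called lower without replicate 2 at 33 °C (adjusted p = 0.0166).

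**Figure D4:**
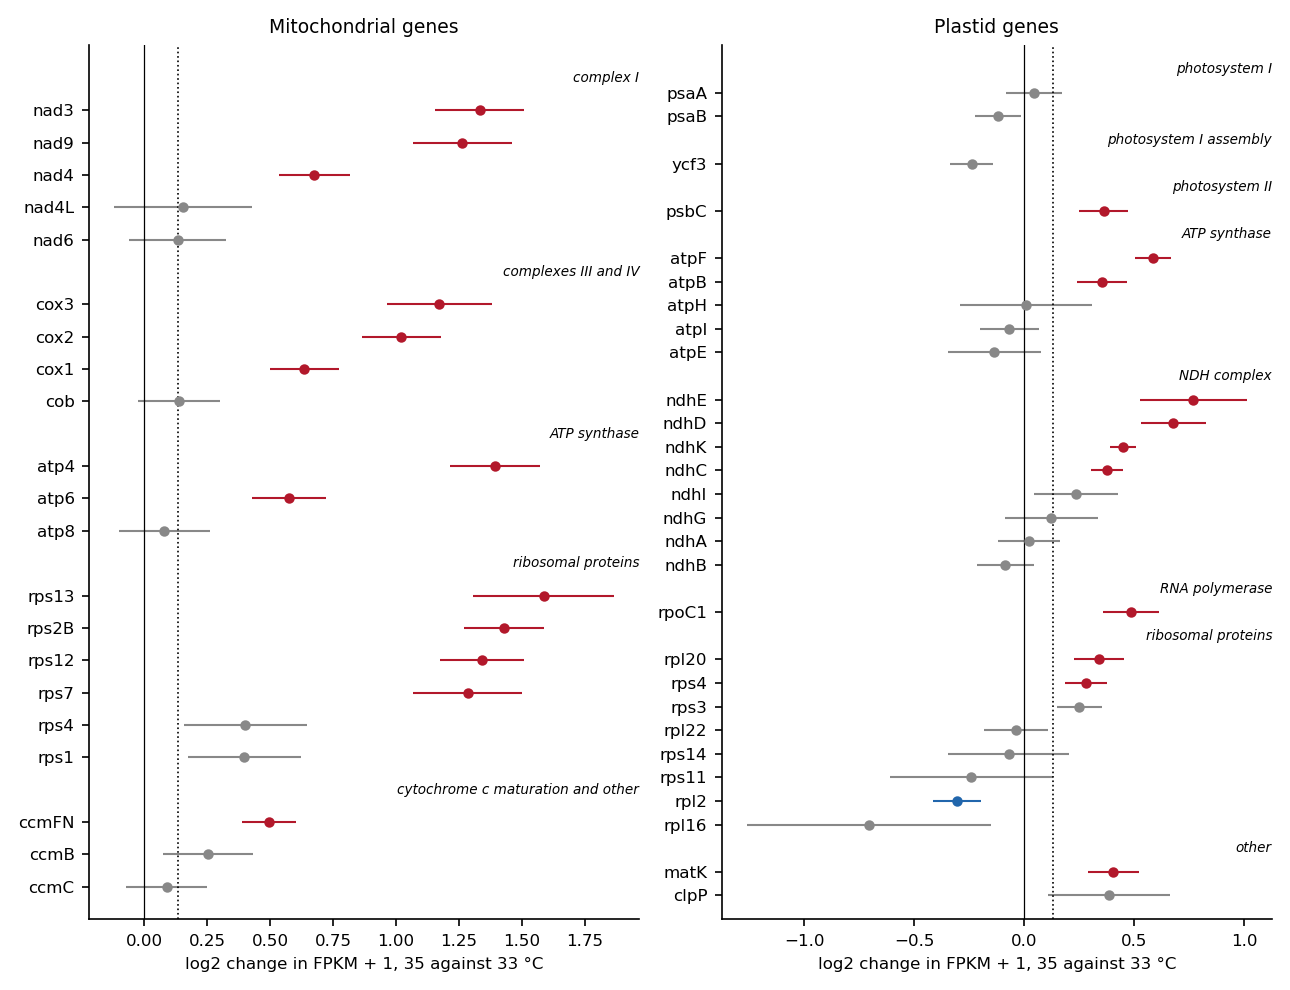
Log2 change in FPKM + 1 at 35 against 33 °C (x axes) of 21 mitochondrial genes at left and 28 plastid genes at right, grouped by complex, as deposited. Points are limma estimates and bars standard errors, with red for called higher, blue for called lower and grey for not called, the solid line at 0 and the dotted line at the median of all genes, 0.13. All mitochondrial points are above 0, while the plastid points lie on both sides, with a median of 0.18 that becomes 0.0035 after scaling.

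The response at V4 was next set against the response of the same line at V5, 35 against 33 °C in each. At V5, as deposited, the balance ran the other way, with 2952 genes higher (13.0%) and 8728 lower (38.3%), together 51.2% of those tested. After scaling it did not, with 4868 genes higher at V5 (21.4%) and 4463 lower (19.6%). The response differed between stages in 12054 genes (52.9%), being more positive at V4 in 10080 (44.2%) and more negative in 1974 (8.66%), with a median difference of 0.31. The difference was at least 2-fold in 1609 of the more positive (7.06%) and 455 of the more negative genes (2.00%). After size-factor scaling 8446 genes differed, 3839 more positive (16.8%) and 4607 more negative (20.2%) at V4, and the median difference was -0.00. Of the genes called at both stages whose responses differed, 2860 were higher at 35 °C at V4 and lower at V5, and 374 the opposite, against 657 and 1134 after scaling. The balance of direction between stages therefore rests on the scaling, while 8446 genes still differ after it. The V4 and the V5 libraries also fall in different sets by Zm00001d033132, and stage and library set cannot be told apart here.

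Some nuclear genes moved in opposite directions at V4 and V5 by a wide margin. Genes with responses of opposite sign were put first when genes were named for a difference in response. Their opposite direction is therefore not a result for them. Zm00001d037229 had 8.87, 10.28 and 10.6 FPKM at 35 °C, against 1.96, 1.33 and 2.09 FPKM at 33 °C, at V4. At V5 it had 8.44, 8.32 and 8.07 FPKM at 35 °C, against 44.08, 45.34 and 51.36 FPKM at 33 °C. It was higher at 35 °C at V4 and lower at V5, and the responses differed by 4.34 on the log2 scale (SE 0.17, adjusted p = 9.66e-22). Zm00001d042862 had 21.31, 15.43 and 18.75 FPKM at 35 °C, against 5.42, 3.27 and 3.69 FPKM at 33 °C, at V4. At V5 it had 13.63, 17.38 and 18.9 FPKM at 35 °C, against 68.65, 63.42 and 78.58 FPKM at 33 °C. The levels at 35 °C overlapped between the stages and those at 33 °C did not, and the responses differed by 3.96 (SE 0.32, adjusted p = 3.93e-13).

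Opposite to these, Zm00001d011847, at 0.713 ± 0.15 FPKM at 35 °C and 11.3 ± 0.95 FPKM at 33 °C at V4, had 4.19, 4.83 and 4.47 FPKM at 35 °C, against 2.17, 1.54 and 1.93 FPKM at 33 °C, at V5. The responses differed by -3.78 (adjusted p = 7.32e-22). Zm00001d016588 had 2.47, 1.89 and 2.06 FPKM at 35 °C, against 6.7, 6.83 and 5.98 FPKM at 33 °C, at V4. At V5 it had 18.83, 16.97 and 14.82 FPKM at 35 °C, against 2.86, 3.09 and 2.97 FPKM at 33 °C, a difference of -3.42 (SE 0.19, adjusted p = 1.58e-17). Both fell at V4 and rose at V5 without overlap of the groups. Genes with large changes were shared in part. Of the 425 genes called at least 2-fold higher at V4, 103 were so at V5 (24.2% of these 425 and 18.3% of the 562 at V5, where 2.47% of all genes were so called) and 21 were at least 2-fold lower there. Of the 94 called lower at V4, 25 were so at V5 (26.6% of these 94 and 2.97% of the 841 at V5, which are 3.69% of all genes).

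Between 33 and 35 °C the rise of mitochondrial transcripts was not seen at V5. There 0 of the 21 named genes were called in either direction and the median log2 change was 0.06. After scaling nad4 was called higher at V5 (log2 change 0.42, adjusted p = 0.0156) and the other 20 were not called. Their summed FPKM, at V4 78.0 ± 12.2 at 35 °C and 26.9 ± 3.48 at 33 °C, were at V5 115 ± 4.59 at 35 °C and 118 ± 5.05 at 33 °C (SD, n = 3 each). All V5 libraries of both temperatures lay above all V4 libraries. At V5 the sums averaged 53.7 ± 4.32 FPKM at 31 °C and 123 ± 1.58 FPKM at 37 °C (SD, n = 3 each). The step up at V5 thus lay between 31 and 33 °C. The response was more positive at V4 in 12 of the 21, against 44.2% of all genes, and in 9 after scaling, against 16.8% of all genes. Of the 12, rps4 rests on its 1 positive library, and without replicate 2 at 35 °C its difference was 0.42 (adjusted p = 0.256). The differences were 1.56 for nad9 (adjusted p = 1.28e-05), 1.54 for rps12 (adjusted p = 8.54e-07) and 1.37 for rps2B (adjusted p = 3.09e-06). The levels of rps12 at V5 were 40.28, 33.22 and 29.5 FPKM at 35 °C, against 40.43, 36.51 and 40.96 FPKM at 33 °C. Of the 28 plastid genes, 15 were called higher and 1 lower at V5, against 13.0% and 38.3% of all genes, and 18 and 1 after scaling, against 21.4% and 19.6%. The response was less positive at V4 in 8 of them, against 8.66% of all genes, and in 16 after scaling, against 20.2%. Among the 8 were matK (-0.58, adjusted p = 0.00295) and atpB (-0.57, adjusted p = 0.00301).

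The response of W22 at V4 was closer to that of the bzip60-2 mutant at the same stage. In the mutant 5746 genes were higher at 35 °C than at 33 °C (25.2%) and 1682 lower (7.38%), together 32.6%, and 36 were at least 2-fold lower (0.158%). After scaling 2918 were higher (12.8%) and 3518 lower (15.4%), and 73 were at least 2-fold lower. The response differed between the genotypes in 3547 genes (15.6%), being more positive in W22 in 2110 (9.26%) and more negative in 1437 (6.30%). After scaling 3533 genes differed, 1684 more positive (7.39%) and 1849 more negative (8.11%) in W22, so the balance turned. The difference was at least 2-fold in 128 of the more positive (0.562%) and 178 of the more negative genes (0.781%). Across genes, which are not independent replicates, the W22 V4 log2 changes had a Pearson r of 0.50 with those of bzip60-2 at V4 and of 0.21 with those of W22 at V5, and no library is shared between these responses. Of the 425 genes called at least 2-fold higher in W22, 161 were so in the mutant (37.9% of these 425 and 43.05% of the 374 in bzip60-2, which are 1.64% of all genes) and 0 were 2-fold lower. The 35 and 33 °C libraries of the mutant carry high Zm00001d033132 levels and those of W22 V4 do not, so that genotype and library set cannot be told apart in this comparison.

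Zm00001d028750 had the largest difference in response between the genotypes among the nuclear identifiers named here. In W22 it averaged 427 ± 14.8 FPKM at 35 °C and 18.99 ± 0.369 FPKM at 33 °C (SD, n = 3 each). The mutant had 14.21, 16.37 and 15.55 FPKM at 35 °C, against 11.86, 12.59 and 13.54 FPKM at 33 °C. The log2 change in bzip60-2 was 0.26 (adjusted p = 0.00282), and after scaling it was 0.12 and no longer called (adjusted p = 0.178). The response was 4.16 greater in W22 (SE 0.097, adjusted p = 1.26e-28). At 37 °C the gene averaged 91.2 ± 3.53 FPKM in the mutant and 104 ± 4.02 FPKM in W22, so the mutant level was higher there than at 35 °C. The other large rise, Zm00001d024903, was present in the mutant too, at 143.98, 150.12 and 148.08 FPKM at 35 °C, against 4.73, 4.77 and 4.81 FPKM at 33 °C. Its log2 response was 0.90 greater in W22 (adjusted p = 7.91e-08). Zm00001d034668, listed at 0 at 35 °C in W22, had 7.8, 6.11 and 11.47 FPKM at 35 °C, against 16.48, 21.11 and 14.41 FPKM at 33 °C, in the mutant (adjusted p of the difference in response 0.00149). This change in the mutant was not called as deposited (adjusted p = 0.0629) and was called after scaling (adjusted p = 0.0367). At V5 Zm00001d034668 averaged 0 FPKM at 35 °C in both genotypes, against 20.9 FPKM at 33 °C in W22 and 31.5 FPKM in bzip60-2.

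Opposite signs between the genotypes were found in 203 genes higher in W22 and lower in bzip60-2 and in 120 of the other kind, among genes called in both with differing responses. After scaling the counts were 158 and 151. For the genes named for this difference, opposite signs were again put first, so their opposite direction is not a result. Zm00001d047436 had 6.15, 6.26 and 6.35 FPKM at 35 °C, against 0.31, 0.73 and 0.64 FPKM at 33 °C, in W22. In the mutant it had 3.84, 4.21 and 4.38 FPKM at 35 °C, against 6.15, 5.54 and 5.81 FPKM at 33 °C. It rose in W22 and fell in the mutant, with a difference of 2.64 (SE 0.15, adjusted p = 3.19e-16). Zm00001d043215 had 2.51, 2.86 and 3.86 FPKM at 35 °C, against 5.56, 6.99 and 6.15 FPKM at 33 °C, in W22. In the mutant it had 3.11, 4.93 and 3.67 FPKM at 35 °C, against 0.42, 0.45 and 1.3 FPKM at 33 °C, a difference of -2.37 (SE 0.25, adjusted p = 2.77e-09).

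Zm00001d020915 had 0.64, 0.84 and 1.17 FPKM at 35 °C, against 1.74, 1.34 and 1.65 FPKM at 33 °C, in W22, and 31.36, 30.48 and 33.58 FPKM at 35 °C, against 8.01, 8.55 and 9.14 FPKM at 33 °C, in the mutant. Its difference was -2.24 (SE 0.18, adjusted p = 4.28e-12), and its level was higher in the mutant at both temperatures. Zm00001d021246 had a difference of 2.69 that was less secure (SE 0.94, adjusted p = 0.0466). Its 12.26, 13.73 and 11.67 FPKM at 35 °C in W22, against 10.14, 8.25 and 9.02 FPKM at 33 °C, were not called (adjusted p = 0.669), and the mutant had 1.15, 6.54 and 0 FPKM at 35 °C, against 10.24, 15.09 and 9.08 FPKM at 33 °C. The scatter of the mutant at 35 °C is wide, and the call was lost when any 1 of the W22 libraries was left out (adjusted p between 0.0646 and 0.0819).

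In the mutant 10 of the 21 named mitochondrial genes were called higher and 0 lower, against 25.2% and 7.38% of all genes, and 11 were not called. Their median log2 change was 0.46. After scaling 9 were higher and 0 lower, against 12.8% and 15.4% of all genes, with a median of 0.38. Their summed FPKM, in W22 78.0 ± 12.2 at 35 °C and 26.9 ± 3.48 at 33 °C, were in bzip60-2 68.3 ± 9.11 at 35 °C and 40.2 ± 0.821 at 33 °C (SD, n = 3 each). The libraries of the genotypes overlapped at 35 °C and not at 33 °C. The response was more positive in W22 in 4 of the 21 under both scalings, of which 3 were ribosomal protein genes and the other nad3. The differences were 1.37 for rps13 (adjusted p = 0.0141), 0.94 for nad3 (adjusted p = 0.00747), 0.89 for rps7 (adjusted p = 0.0426) and 0.75 for rps2B (adjusted p = 0.017). The background is the 9.26% of all genes with a more positive response in W22, or 7.39% after scaling. These differences are slight: with only the 12 libraries of this comparison in the fit 1 of the 4 was called, rps13 was lost without replicate 1 at 33 °C (adjusted p = 0.0539), rps2B without replicate 2 at 33 °C (adjusted p = 0.0751), and rps7 when any 1 of 4 of the W22 libraries was left out (adjusted p between 0.0561 and 0.139). Of the 28 plastid genes 11 were called higher and 1 lower in W22, against 31.1% and 7.98% of all genes. After scaling these were 6 and 3, against 15.1% and 17.8%. In the mutant 5 were higher and 3 lower, against 25.2% and 7.38% of all genes. After scaling these were 2 and 4, against 12.8% and 15.4%. The response was more positive in W22 in 4 of 28, against 9.26% of all genes. After scaling it was so in 2, near the 7.39% of all genes.

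**Figure D5:**
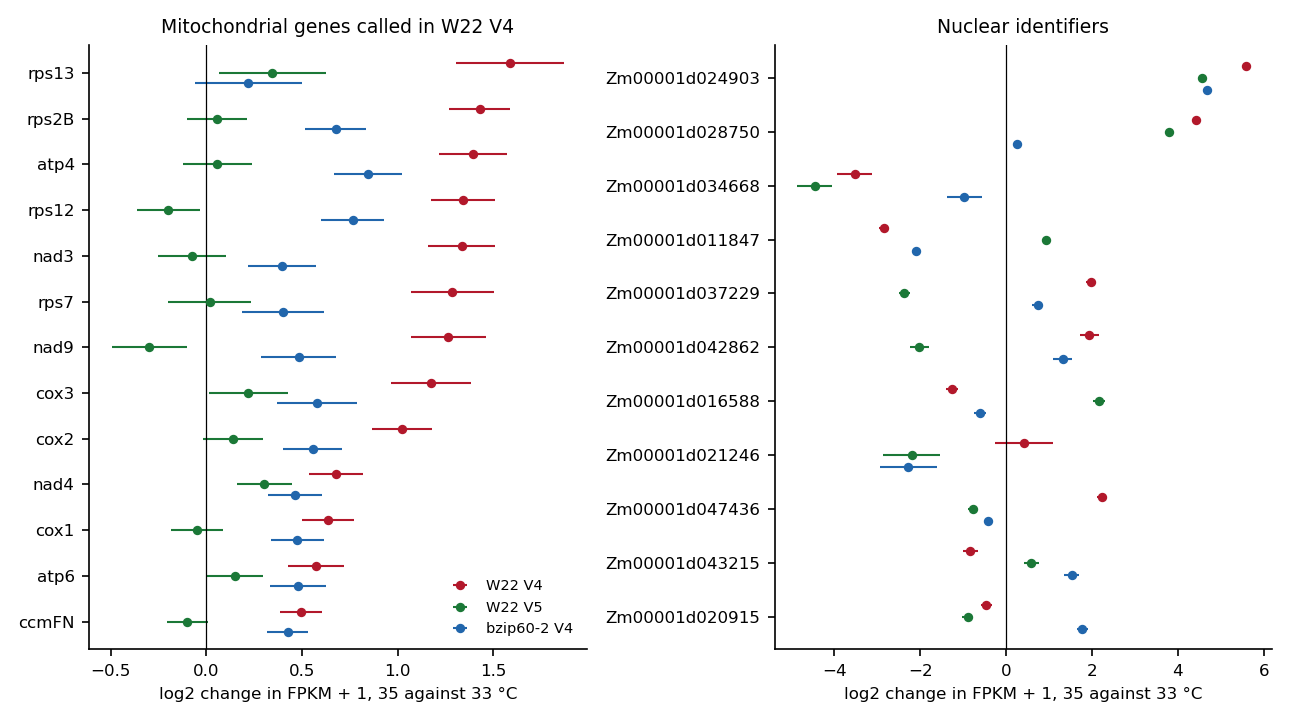
Log2 change in FPKM + 1 at 35 against 33 °C (x axes) in W22 V4 (red), W22 V5 (green) and bzip60-2 V4 (blue), for the 13 mitochondrial genes called in W22 V4 at left and 11 nuclear identifiers at right. Points are limma estimates and bars standard errors. The W22 V4 points of the mitochondrial genes lie right of the others, which the choice of genes by their W22 V4 call favours. Against bzip60-2 the difference is called for 4 genes, and Zm00001d034668 is drawn against a group listed at 0, where the estimate depends on the added 1.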

How the data were processed

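Poly(A) RNA of 48 maize leaf libraries was sequenced, and the 6 of W22 at V4 and 35 or 33 °C are the subject here. The FPKM were computed by the authors and deposited to 2 decimals in 1 table of 33309 genes, per the file headers. The tools named, per the submitters' processing notes and with no role given, are DESeq2 1.4.5, RSEM 1.2.12, Bowtie2 2.2.5, HISAT and HISAT2 2.0.4, and the build is not given in the sources used here. In the table, 2666 genes were added by the authors and 1189 share all values with another gene (76 of those tested).

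All tests used log2(FPKM + 1) of the deposited values, a log2 scale on which low genes change less than their FPKM do. Genes with at least 1 FPKM in at least 3 libraries were kept (22794). limma 3.58.1 in R 4.3.3 was fitted to all 48 libraries with 16 group means and a mean-variance trend, two-sided, with Benjamini-Hochberg adjustment over all genes and a threshold of 0.05 for a call. A difference in response is the contrast of 2 temperature contrasts. Size-factor scaling, a pseudocount of 0.1, other filters, a replicate block, array weights, smaller fits and leaving out each of the 6 libraries were tried as alternatives, and the order of temperatures without replicate 3 at 37 °C was added after its values were seen.

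Named are at most 2 nuclear identifiers in each direction per comparison, by size of change among called genes whose highest group averaged 5 FPKM or more, and the named organelle genes that passed the filter, of which 1 plastid gene is not reported here. Nuclear gene lists and cell type markers had 0 matches by symbol and were not analysed here. The members and lists were chosen with earlier results of these data known. Plots were made in matplotlib 3.10.9 under Python 3.11.15.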

Additional observations from a re-analysis of the deposited data

Results flagged for a closer look

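The tests of the difference between responses put 12054 genes apart between W22 V4 and W22 V5 and 3547 between W22 V4 and bzip60-2 V4, with limma over all genes. The values that follow are differences in the log2 response, 35 against 33 °C, that passed that test for named genes. Stage or genotype goes together with the library set in these tests, and the part of the set was not tested.

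Against W22 V5, nuclear identifiers with a more positive response in W22 V4 were Zm00001d037229 (4.34), Zm00001d042862 (3.96), Zm00001d047436 (3.00), Zm00001d021246 (2.61), Zm00001d024903 (1.02), Zm00001d028750 (0.63) and Zm00001d020915 (0.43). Those with a more negative one were Zm00001d011847 (-3.78), Zm00001d016588 (-3.42) and Zm00001d043215 (-1.42). After size-factor scaling Zm00001d020915 and Zm00001d021246 no longer passed, and Zm00001d020915 was also lost when replicate 2 or 3 of 35 °C, or 2 of 33 °C, was left out (adjusted p between 0.054 and 0.143). With a pseudocount of 0.1 the call of Zm00001d028750 was lost (0.31, adjusted p = 0.331), as were those of Zm00001d020915 and Zm00001d021246. The mitochondrial genes all differed in the same direction: nad9 by 1.56, rps12 by 1.54, nad3 by 1.41, rps2B by 1.37, atp4 by 1.33, rps7 by 1.27, rps13 by 1.24, cox3 by 0.95, cox2 by 0.88, rps4 by 0.85, cox1 by 0.68 and ccmFN by 0.59. The calls of cox1, cox3 and rps4 were lost after scaling, and that of rps4 also when replicate 2 of 35 °C, or 2 or 3 of 33 °C, was left out (adjusted p between 0.059 and 0.256). The plastid genes differed in the other direction: atpE by -0.70, rps3 by -0.62, matK by -0.58, atpB by -0.57, rpl2 by -0.47, rps4 by -0.37, atpF by -0.33 and ndhK by -0.20. Leaving out any 1 of 4 libraries, replicates 1 and 3 of 35 °C and 1 and 2 of 33 °C, ended the call of atpE (adjusted p between 0.0527 and 0.175). The call of ndhK ended when replicate 2 of 35 °C, or 1 or 3 of 33 °C, was left out (between 0.0605 and 0.107) and with a replicate block (0.0566). That of rps4 was lost without replicate 1 at 35 °C (0.0547) and that of atpF without replicate 3 at 33 °C (0.0658).

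Against bzip60-2 V4, the response in W22 V4 was more positive for Zm00001d028750 (4.16), Zm00001d021246 (2.69), Zm00001d047436 (2.64), Zm00001d037229 (1.24) and Zm00001d024903 (0.90). It was more negative for Zm00001d034668 (-2.55, on the FPKM + 1 scale against libraries listed at 0), Zm00001d043215 (-2.37), Zm00001d020915 (-2.24), Zm00001d011847 (-0.75) and Zm00001d016588 (-0.65). With a pseudocount of 0.1 the calls of Zm00001d021246 (adjusted p = 0.173) and Zm00001d016588 (adjusted p = 0.182) were lost. Mitochondrial differences were 1.37 for rps13, 0.94 for nad3, 0.89 for rps7 and 0.75 for rps2B. Plastid differences were 0.94 for ndhD, 0.39 for ycf3, 0.38 for ndhC and 0.24 for ndhK, of which ycf3 and ndhK no longer passed after scaling. The call of ycf3 was also lost in 5 of the 6 fits that left out 1 library, the one without replicate 3 at 33 °C excepted (adjusted p between 0.0634 and 0.161). The call of ndhK ended when 1 of replicates 1 and 3 of 35 °C and 2 and 3 of 33 °C was left out (between 0.0595 and 0.107) and with a replicate block (0.0595).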

How the results depend on the processing

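No named gene changed sign while called under any alternative that was run. Size-factor scaling gave 3437 genes higher and 4060 lower, 188 at least 2-fold lower, and 6 plastid genes higher and 3 lower. The lower scaled values follow from size factors that were larger at 35 °C. Scaling also gave 16 plastid genes with a less positive response than at V5 and 2 with a more positive one than in bzip60-2. A pseudocount of 0.1, which by construction enlarges the change of low genes, raised the 2-fold calls to 1382 (1098 higher and 284 lower). Testing all genes above 0 in at least 1 library left 2 plastid genes with a more positive response than in bzip60-2, and fitting the compared libraries alone left 1 such mitochondrial gene; the cause was not tested. With array weights, and with a filter of 5 FPKM in 3 libraries, 2 plastid genes were called lower; the cause was not tested. Of 108 values tested for named genes, 12 lost their call under scaling, 8 with a pseudocount of 0.1 and 9 with the compared libraries alone. The 108 include values not called in the main fit, which could not lose a call.

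With each of the 6 libraries left out, 7822 to 8161 genes were called, 6164 to 6526 higher and 1622 to 1666 lower, with fewer libraries in the fit. The 13 mitochondrial calls stayed at 13. Plastid calls ran between 8 and 12 higher and between 0 and 2 lower, and those more positive than in bzip60-2, 4 with all libraries, between 2 and 3.

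Replicate numbers did not mark pairs: the deviations of same-numbered libraries had correlations of -0.008, -1e-04 and -0.004, and no library correlated best with its own number. With a replicate block 8844 genes were called, 7032 higher and 1812 lower, with 13 mitochondrial genes higher, and 12 plastid genes higher and 2 lower. Responses differed in 11947 genes against V5 and 3469 against bzip60-2.

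Absolute depth is unknown, so no counting error can be given, and genes under 1 FPKM, many mitochondrial ones among them, are the least certain.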
